A study of Mus musculus with 10 samples.

Results

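The genes described here are the 10 that drive and restrain the G1 phase of the cell cycle: the D-type cyclins Ccnd1, Ccnd2 and Ccnd3, the E-type cyclins Ccne1 and Ccne2, the cyclin-dependent kinases Cdk2, Cdk4 and Cdk6, and the pocket proteins Rb1 and Rbl2. They were chosen by symbol through the Ensembl identifiers of the count table, which lists 52550 genes, and all 10 reached the minimum of 10 counts summed over the libraries, so all were measured. The data are RNA-seq read counts of mouse hematopoietic stem and progenitor cells (HSPCs) from C57BL/6 donors aged 8 to 20 weeks, transformed in culture with a retrovirus for the MLL-AF9 fusion oncogene. Every library also carried tetR-KRAB, a repressor that keeps a vector silent until doxycycline (DOX) is added. MLL-AF9-i139 cells carried a DOX-inducible miR-139 vector, and 3 clones picked from colonies were sequenced without DOX and with 5 µg/mL DOX, giving 3 untreated and 3 treated libraries. MLL-AF9-ieGFP cells carried an inducible eGFP vector and gave 4 libraries from 1 clone, untreated and DOX-treated, each harvested at 48 and 72 hours. Clones 1 and 2 of MLL-AF9-i139 received DOX for 48 hours and clone 3 for 72 hours, so clone 3 and the longer treatment cannot be told apart, and no harvest time is given for the untreated MLL-AF9-i139 libraries.

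In G1, D-type cyclins bind and activate Cdk4 and Cdk6, and these complexes start to phosphorylate the pocket proteins. The pocket proteins hold back E2F transcription factors, and once they are phosphorylated further by Cdk2 with an E-type cyclin, E2F target genes are transcribed and the cell can enter S phase. Myeloid leukemia cells with MLL fusions are known to depend on Cdk6 more than on Cdk4, and the D-type cyclins are used to different degrees by different blood lineages.

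The induced microRNA has a mature form from each arm of its hairpin. They are shown because some of the 10 genes hold matches to their seeds, and the capitals mark the seed, bases 2 to 8 from the 5′ end. Both sequences were taken from RefSeq, assembly GRCm38.p6, where they lie on the plus strand at chr7:101475382-101475403 (5p) and chr7:101475418-101475439 (3p).
mmu-miR-139-5p: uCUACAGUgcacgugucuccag
mmu-miR-139-3p: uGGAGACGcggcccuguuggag

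The libraries held 35133308 to 47089725 counted reads, and the TMM scaling factors ranged from 0.967 to 1.038. The induction itself could not be read from the counts, because Mir139 had 0 counts in all 10 libraries and its host gene Pde2a had 1. Both lie wholly inside the bodies of other annotated genes. Of 788 protein-coding genes that lie inside another gene's body without sharing an exon base with it, 782 had 0 counts, against 2914 of 11686 genes outside all other gene bodies, so counts appear to have been assigned over whole gene bodies and reads in an overlap dropped. This touches the genes described here to different degrees. The share of exon bases inside another gene's body was 0% for Ccne1 and below 5% for Cdk6 (2.63%) and Ccnd3 (4.11%), 13.5% for Cdk2, 19.7% for Cdk4, 28.7% for Ccnd2 and 37.6% for Ccnd1. It was 39.5% for Rbl2, 59.7% for Rb1 and 63.0% for Ccne2. Changes of these genes are therefore changes in the reads outside the overlaps, intronic reads included.

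The main question was which of the 10 genes changed on DOX in MLL-AF9-i139 cells. When clone identity was not modelled, none of the 10 passed an adjusted p of 0.05 with edgeR's quasi-likelihood test, 6 had an unadjusted p below 0.05 (3 higher and 3 lower, where 20.6% of all genes did), and DESeq2 called 3, Ccnd3, Rb1 and Cdk6. Over all genes, 12 of 19223 passed with edgeR, a background of 0.0624%, and 1556 or 8.09% by DESeq2. When the clone was modelled as a block, so that each DOX library was set against the untreated library of its own clone, Ccnd3 and Rb1 rose and Cdk4 and Cdk6 fell. The background in that fit was 7.05% of genes higher and 5.33% lower. These 4 calls, like the rest below, were read from fits over all genes tested and adjusted over all of them.

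The clones did not respond to the same extent. Of the 10 genes, 9 had their smallest log2 change, by size without regard to sign, in clone 3 and Ccnd1 had it in clone 1. Ccnd2, among the 9, moved the opposite way in clone 3 (0.55, against −0.73 and −0.89 in clones 1 and 2). Without clone 3, edgeR with no block called 7 of the 10, with Ccnd3, Rb1 and Rbl2 higher and Ccne1, Ccne2, Cdk4 and Cdk6 lower, against a background of 11.6% of genes higher and 10.1% lower. When clone 3 was left out of the blocked fit, 9 of the 10 were called (4 higher and 5 lower), all but Ccnd1, in a fit that called 22.5% of all genes higher and 20.9% lower. Without clone 1 or without clone 2, edgeR called 0 of the 10 both with and without the block. Over all genes, the fits with no block called 1 of 18014 without clone 1 and 0 of 18319 without clone 2. The blocked fits called 324 and 580 of them, so few calls were made among all genes as well. In direction, 5 genes were higher in all 3 clones (Ccnd1, Ccnd3, Cdk2, Rb1 and Rbl2) and 4 were lower in all 3 (Ccne1, Ccne2, Cdk4 and Cdk6), where 27.1% of all genes tested were higher and 26.7% lower in all 3. The treated and untreated libraries did not overlap for 3 genes that were higher, Ccnd3, Rb1 and Rbl2, and 2 that were lower, Ccne1 and Cdk6, against 11.8% and 13.1% of all genes.

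**Figure D1:**
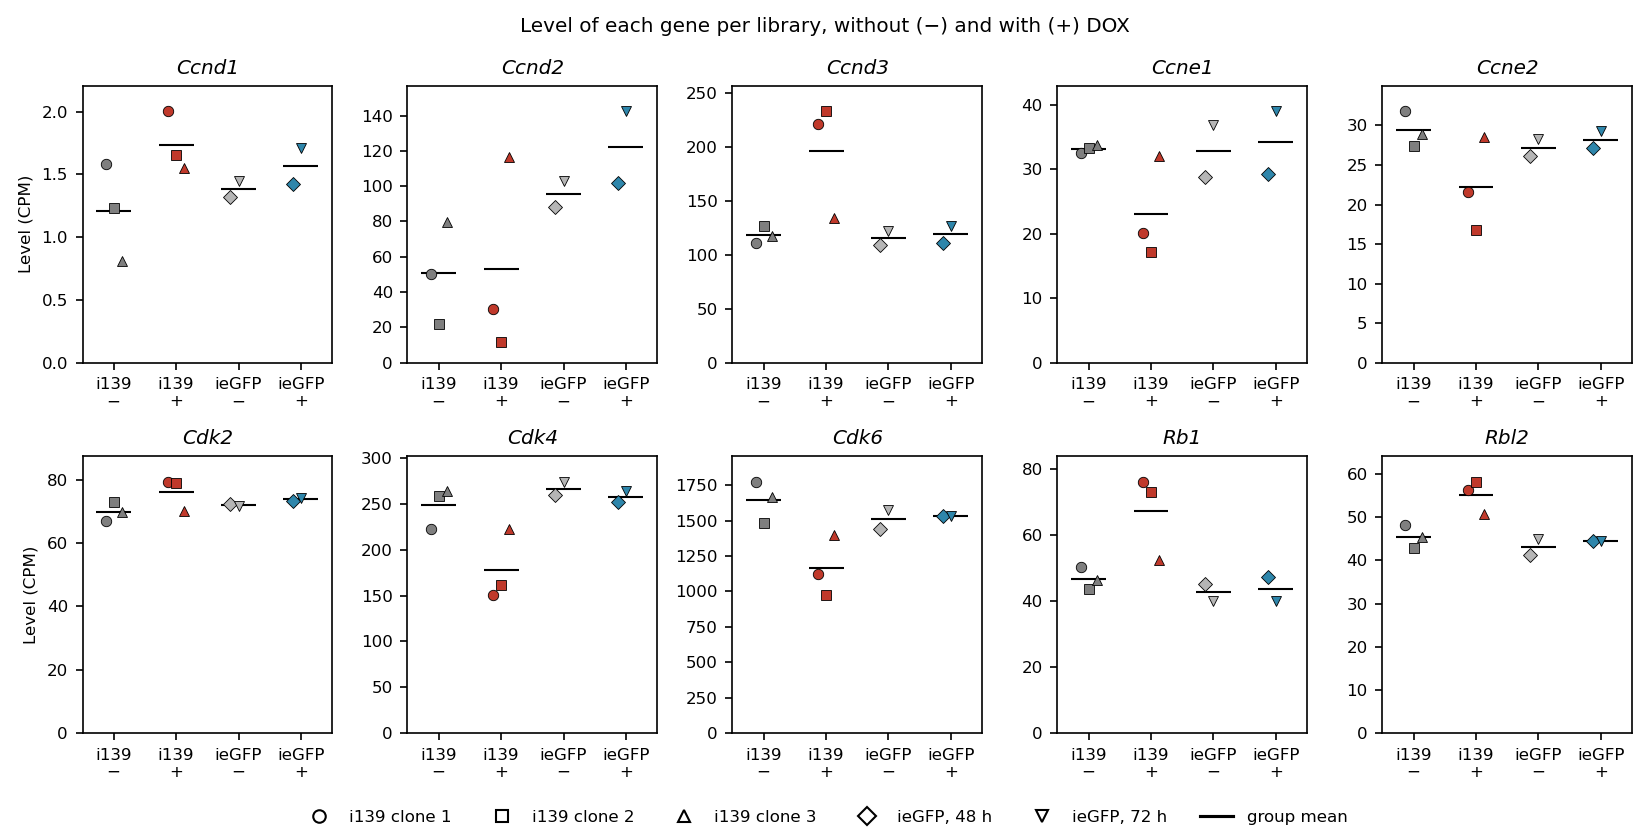
Read counts scaled to library size (CPM, counts per 1e6 reads with TMM scaling, linear axes from 0) of the 10 genes in each library, grouped as MLL-AF9-i139 and MLL-AF9-ieGFP without and with DOX, with 1 point per library and a line at the group mean. The treated MLL-AF9-i139 libraries lie above all untreated ones for Ccnd3, Rb1 and Rbl2 and below them for Ccne1 and Cdk6, and the Ccnd2 panel has the widest scatter within groups.

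Ccnd3, which encodes cyclin D3, the D-type cyclin with prominent roles in blood cells, showed the largest change of the 10 genes without a block. It lies at chr17:47505051-47599691 on the plus strand of GRCm38 (ENSMUSG00000034165.16). It stood at 111, 126 and 118 CPM in untreated clones 1, 2 and 3 and at 221, 233 and 134 CPM with DOX. All 3 treated libraries were above all 3 untreated ones, but clone 3 was nearer to the untreated range than to clones 1 and 2. The means were 118 ± 7.93 and 196 ± 53.9 CPM (SD, n = 3 each), a 1.68-fold difference and a log2 change of 0.75 (SE 0.20, 95% confidence interval 0.29 to 1.20, edgeR adjusted p = 0.12). With the clone as a block, Ccnd3 rose by 0.71 (SE 0.16, edgeR adjusted p = 0.0366), and over all settings tried the adjusted p ranged from 5.97e-18 to 0.742.

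Ccnd2, which encodes cyclin D2, varied more between clones than with DOX. The gene lies at chr6:127125162-127152193 on the minus strand (ENSMUSG00000000184.12). Untreated clones 1, 2 and 3 stood at 50.4, 22.0 and 79.6 CPM, and the treated ones at 30.3, 11.8 and 116 CPM. It was lower with DOX in clones 1 and 2 and higher in clone 3, and the groups overlapped widely. The group means were 50.7 ± 28.8 and 52.8 ± 55.8 CPM (SD, n = 3), and the log2 change of 0.07 (95% confidence interval −1.66 to 1.80, edgeR adjusted p = 0.972) turned to −0.33 with the clone as a block (SE 0.26, edgeR adjusted p = 0.428). The log2 changes by clone were −0.73, −0.89 and 0.55.

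Ccnd1, which encodes cyclin D1, had the fewest reads of the 10 genes. It lies at chr7:144929931-144939925 on the minus strand (ENSMUSG00000070348.5) and had 32 to 96 counts per library. The untreated clones stood at 1.58, 1.23 and 0.811 CPM and the treated ones at 2.00, 1.65 and 1.55 CPM. Each clone was higher with DOX than without, but treated clone 3 was below untreated clone 1, so the groups overlapped. The log2 change was 0.53 (SE 0.29, 95% confidence interval −0.13 to 1.20, edgeR adjusted p = 0.334), and it did not pass the test with or without the block. The log2 change by clone was 0.33, 0.41 and 0.89, and Ccnd1 was the one gene of the 10 with its largest change in clone 3.

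The E-type cyclins were lower with DOX in clones 1 and 2 and nearly level in clone 3. Ccne1 (chr7:38097984-38107534, minus strand, ENSMUSG00000002068.16) encodes cyclin E1, the partner of Cdk2 at the entry to S phase. It stood at 32.6, 33.4 and 33.7 CPM in the untreated clones, with a mean of 33.2 ± 0.581 CPM (SD, n = 3), and at 20.2, 17.1 and 32.0 CPM with DOX. The treated libraries were all below the untreated ones, by a wide margin in clones 1 and 2 and by a narrow one in clone 3. The log2 change was −0.51 (SE 0.22, 95% confidence interval −1.01 to −0.01, edgeR adjusted p = 0.232), and with the block it was −0.56 (edgeR adjusted p = 0.065). Ccne2 (chr4:11191351-11204779, plus strand, ENSMUSG00000028212.16), the second E-type cyclin, stood at 31.8, 27.4 and 29.0 CPM without and 21.6, 16.7 and 28.5 CPM with DOX. Treated clone 3 lay within the untreated range. Its log2 change was −0.39 (SE 0.19, edgeR adjusted p = 0.291), and without clone 3 it was −0.60 with an edgeR adjusted p of 0.0285, beside −0.80 and 0.00386 for Ccne1. Over all settings tried, the adjusted p ranged from 1.41e-12 to 0.758 for Ccne1 and from 3.45e-09 to 0.768 for Ccne2. With DESeq2 and the block, Ccne1 fell (adjusted p = 0.0141).

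Cdk6, the kinase partner of D-type cyclins on which MLL-fusion leukemia is known to rely, had the most reads of the 10 genes. It lies at chr5:3341485-3531008 on the plus strand (ENSMUSG00000040274.11). Untreated clones 1, 2 and 3 stood at 1775, 1482 and 1668 CPM and the treated ones at 1124, 974 and 1397 CPM. The groups did not overlap, and clone 3 was again the treated library nearest to the untreated ones. The means were 1641 ± 148 and 1165 ± 214 CPM (SD, n = 3), a ratio of 0.72 and a log2 change of −0.48 (SE 0.15, 95% confidence interval −0.82 to −0.14, edgeR adjusted p = 0.139). With the block Cdk6 fell by 0.49 on the log2 scale (SE 0.10, edgeR adjusted p = 0.0289), and its adjusted p ranged from 4.99e-11 to 0.742 over all settings.

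Cdk4, the other kinase of the D-type cyclins, was lower by the same proportion. It lies at chr10:127063534-127067920 on the plus strand (ENSMUSG00000006728.12), and its untreated libraries stood at 223, 258 and 265 CPM and its treated ones at 151, 161 and 223 CPM. Treated clone 3, at 223.1 CPM, was just above untreated clone 1, at 222.7 CPM, so the groups overlapped by a fraction of 1 CPM, while every clone was lower with DOX than without. The log2 change was −0.47 (SE 0.16, 95% confidence interval −0.83 to −0.10, edgeR adjusted p = 0.163) and a ratio of 0.72. With the block Cdk4 fell by 0.48 (SE 0.10, edgeR adjusted p = 0.0306), and its adjusted p ranged from 5.92e-11 to 0.742 over all settings.

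Cdk2, the kinase of the E-type cyclins, was not called with or without the block. It lies at chr10:128697939-128705031 on the minus strand (ENSMUSG00000025358.16) and stood at 66.9, 73.1 and 69.7 CPM without and 79.4, 78.9 and 70.1 CPM with DOX. Clones 1 and 2 were above every untreated library and clone 3 lay between them. The log2 change was 0.14 (SE 0.10, 95% confidence interval −0.09 to 0.37, edgeR adjusted p = 0.457), so an increase of more than 0.37 lay outside the interval. Over all settings its log2 change ranged from 0.06 to 0.20 and its adjusted p from 0.00828 to 0.927.

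The longest annotated 3′ UTR of each gene was searched for matches to the miR-139 seeds, because the vector encodes this microRNA and microRNAs bind transcripts through such sites. For miR-139-5p the letters searched on the transcript strand were ACTGTAGA, ACTGTAG and CTGTAGA, where the first holds both shorter ones and was counted once, and for miR-139-3p CGTCTCCA, CGTCTCC and GTCTCCA. Cdk6 held 6 matches to miR-139-5p in a 3′ UTR of 10217 bases, 3 of them of the full 8 bases, Cdk4 held 1 in 899 bases and Ccnd2 held 1 in 5173 bases. The other 7 genes held none in 3′ UTRs of 531 to 2676 bases. Of 14056 genes tested that had a 3′ UTR, with a median length of 1267.5 bases, 22.6% held a match to miR-139-5p and 17.3% a match to miR-139-3p, of which Cdk6 held 2 and Ccnd2 1. The windows below show matches to miR-139-5p in capitals, the 8-base ones of Cdk6 and the single ones of Cdk4 and Ccnd2, each read 5′ to 3′ on its own strand of GRCm38.
Cdk6, chr5:3522501-3522522, plus strand: gatgcttcACTGTAGAgctttg
Cdk6, chr5:3528970-3528991, plus strand: cacgtggtACTGTAGAgaaggg
Cdk6, chr5:3529506-3529527, plus strand: gtcctagaACTGTAGAaatcac
Cdk4, chr10:127067505-127067525, plus strand: ttgatgagACTGTAGgtgggg
Ccnd2, chr6:127127138-127127158, minus strand: aacgagtcCTGTAGAgtggcc
These matches describe the letters alone, and no binding was measured. The 3 genes with a match to miR-139-5p had log2 changes of −0.48 (Cdk6), −0.47 (Cdk4) and 0.07 (Ccnd2), and Ccne1, with no match, had −0.51.

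The pocket proteins were both higher with DOX. Rb1, the retinoblastoma tumor suppressor that holds activating E2F factors in check, lies at chr14:73183673-73325822 on the minus strand (ENSMUSG00000022105.6). Its libraries stood at 50.1, 43.6 and 46.2 CPM without and 76.0, 72.8 and 52.3 CPM with DOX. The groups did not overlap, and clone 3 with DOX was close to untreated clone 1. The means were 46.6 ± 3.27 and 67.0 ± 12.9 CPM (SD, n = 3), a 1.45-fold difference and a log2 change of 0.54 (SE 0.15, 95% confidence interval 0.18 to 0.89, edgeR adjusted p = 0.129). With the block Rb1 rose by 0.52 (SE 0.12, edgeR adjusted p = 0.0406), and its adjusted p ranged from 1.09e-13 to 0.742 over all settings.

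Rbl2, which encodes p130, the pocket protein that represses E2F targets in resting cells as part of the DREAM complex, lies at chr8:91070057-91123844 on the plus strand (ENSMUSG00000031666.15). It stood at 48.2, 43.0 and 45.4 CPM without and 56.3, 58.3 and 50.7 CPM with DOX. All treated libraries were above all untreated ones, by a smaller distance than for Rb1. The log2 change was 0.29 (SE 0.11, 95% confidence interval 0.05 to 0.53, edgeR adjusted p = 0.184), and the block gave 0.29 as well (edgeR adjusted p = 0.0828). Without clone 3, Rbl2 rose by 0.35 (edgeR adjusted p = 0.0355), and over all settings its adjusted p ranged from 6.51e-06 to 0.756.

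**Figure D2:**
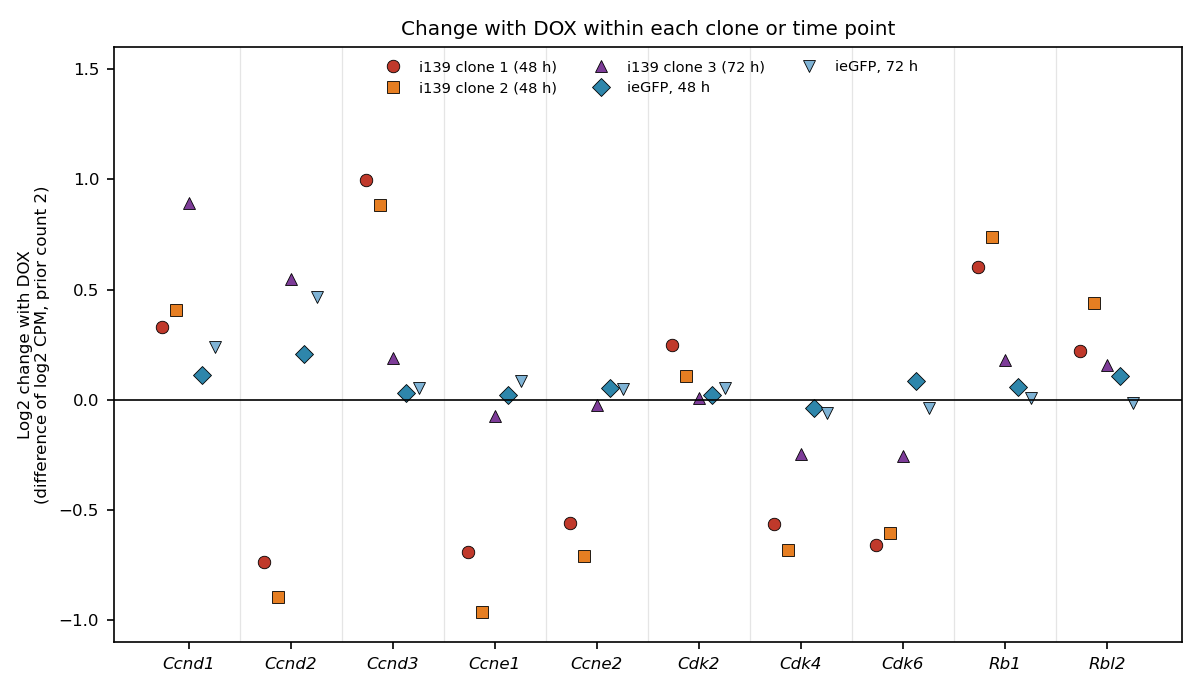
Log2 change in CPM with DOX for each of the 10 genes, with 1 point for each MLL-AF9-i139 clone (clones 1 and 2 at 48 hours, clone 3 at 72 hours) and for each MLL-AF9-ieGFP time point. For Ccnd3 the 3 clones lie at 1.00, 0.88 and 0.19 and the MLL-AF9-ieGFP time points at 0.03 and 0.05, and Ccnd2 has its clones on both sides of 0.

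**Figure D3:**
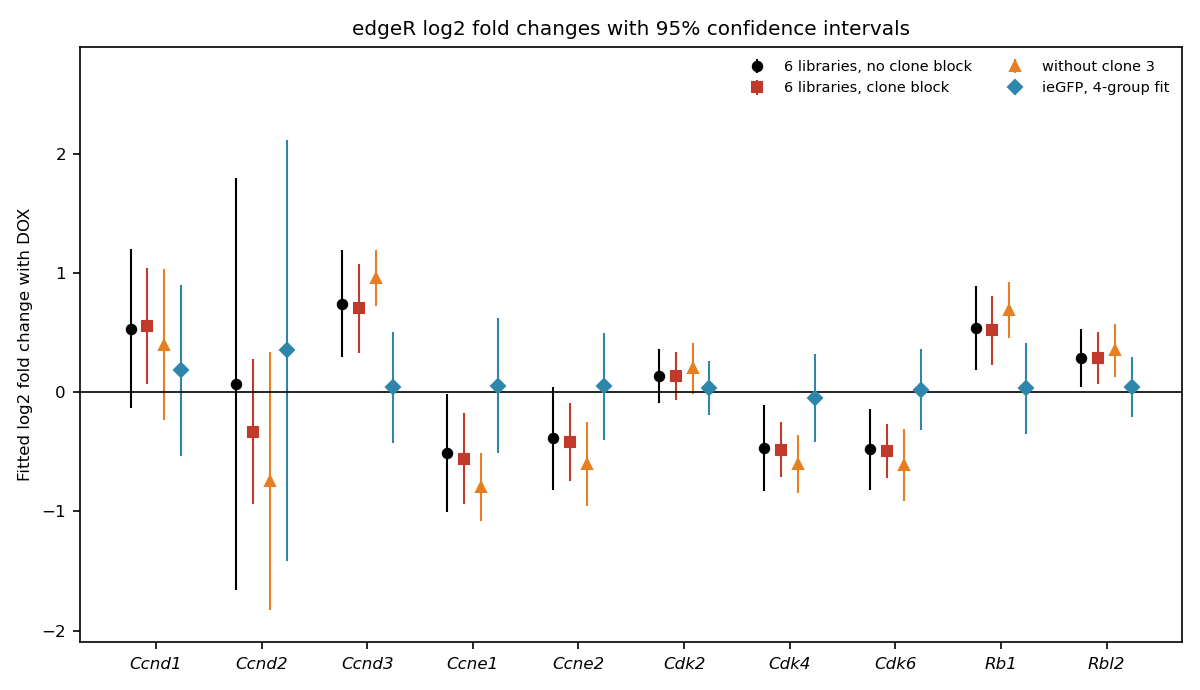
Log2 changes with DOX from edgeR with 95% confidence intervals for the 10 genes, in MLL-AF9-i139 (no block, clone block, or clone 3 left out) and in MLL-AF9-ieGFP. The block narrows the intervals at nearly the same estimates except for Ccnd2, and the estimates without clone 3 lie farther from 0 than those with it for 9 of the genes, all but Ccnd1.

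Ratios of read counts between members of a pair need no scaling between libraries, and they put the changes side by side within each library. They are ratios of reads in genes of unequal length, so only their change with DOX can be read. The ratio of Ccnd3 to Cdk4 reads went from 0.496, 0.489 and 0.444 in the untreated clones to 1.46, 1.45 and 0.601 with DOX, a change of 2.95-fold in clones 1 and 2 and 1.35-fold in clone 3. The ratio of Rb1 to Cdk6 reads went from 0.0283, 0.0295 and 0.0277 to 0.0676, 0.0747 and 0.0374, changes of 2.39-, 2.54- and 1.35-fold. Each treated clone was above every untreated clone in both ratios. Both set a gene that was higher in all 3 clones over a gene that was lower in all 3. Their rise in every clone therefore restates the changes given above. In MLL-AF9-ieGFP the same ratios changed 1.05- and 1.08-fold (Ccnd3 to Cdk4) and 0.981- and 1.03-fold (Rb1 to Cdk6) at 48 and 72 hours. The ratio of Cdk6 to Cdk4 reads, by contrast, stayed between 5.73 and 7.97 in all 6 MLL-AF9-i139 libraries and changed 0.937-, 1.05- and 0.994-fold with DOX. The ratio of the D-type cyclins Ccnd3 to Ccnd2 changed 3.32- and 3.43-fold in clones 1 and 2 and 0.78-fold in clone 3. The ratio of Rb1 to Rbl2 changed 1.30-, 1.23- and 1.01-fold and that of Ccne1 to Ccne2 0.913-, 0.839- and 0.965-fold. No test was made of these ratios.

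**Figure D4:**
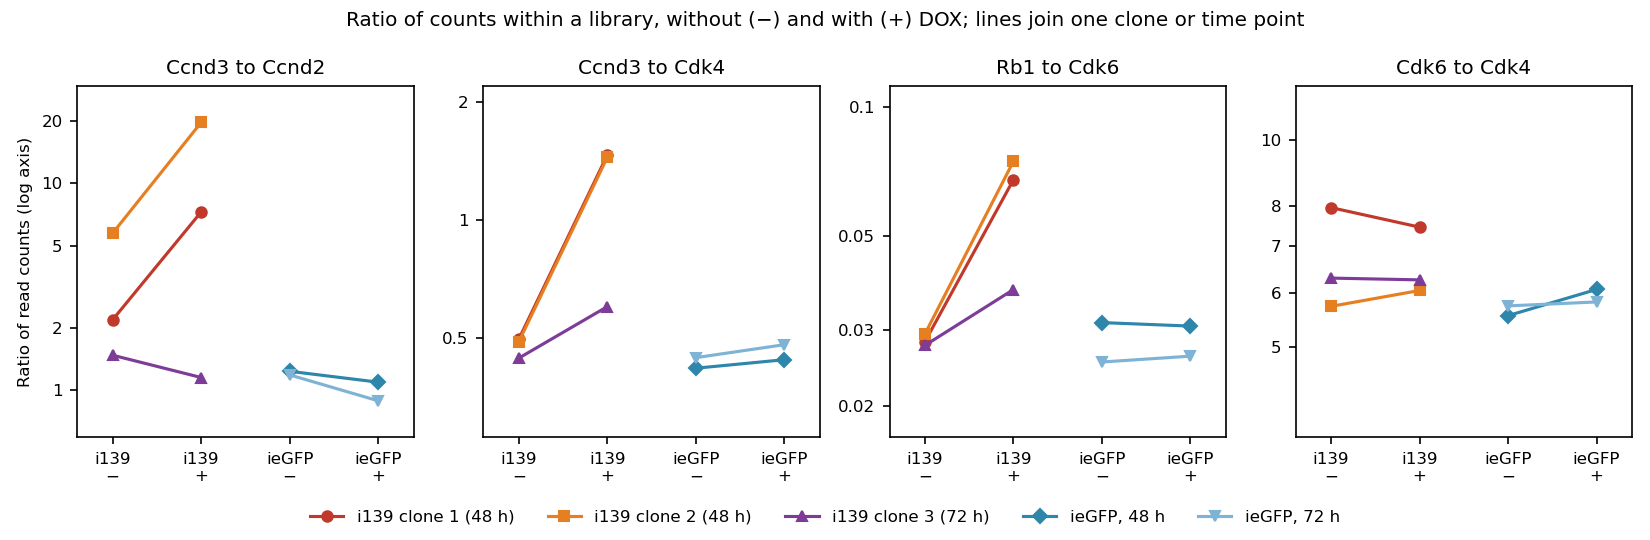
Ratios of read counts within each library (log axis) for Ccnd3 to Ccnd2, Ccnd3 to Cdk4, Rb1 to Cdk6 and Cdk6 to Cdk4, with a line joining the untreated and treated library of each MLL-AF9-i139 clone and each MLL-AF9-ieGFP time point. The lines of clones 1 and 2 rise in the first 3 panels, that of clone 3 falls for Ccnd3 to Ccnd2, and for Cdk6 to Cdk4 the changes with DOX lie between 0.937- and 1.09-fold.

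Levels of different genes can be compared only per length, and here the answer depended on the length used, since the reads appear to include introns. Per kilobase of exon, mean levels over the 3 untreated MLL-AF9-i139 libraries were highest for Cdk6 (117 CPM per exon kilobase) and Cdk4 (76.5), followed by Ccnd3 (13.5), Ccne1 (12.5), Cdk2 (11.2), Ccne2 (8.41), Rb1 (7.76), Rbl2 (6.02), Ccnd2 (5.39) and Ccnd1 (0.257). In this order the libraries of Ccnd3 and Ccne1, of Ccne2 and Rb1, and of Rbl2 and Ccnd2 overlapped, and those of Ccnd2 also reached the levels of Rb1 and Ccne2. Per kilobase of the whole gene body, the order was Cdk4 (56.7 CPM per body kilobase), Cdk2 (9.85), Cdk6 (8.66), Ccne1 (3.48), Ccne2 (2.19), Ccnd2 (1.87), Ccnd3 (1.25), Rbl2 (0.847), Rb1 (0.328) and Ccnd1 (0.121), and here the libraries of Ccnd2 overlapped those of Ccne2, Ccnd3 and Rbl2. On both scales Cdk4 was above Cdk2 and Ccnd1 was lowest, while the order of Cdk6 and Cdk4, of Ccnd3 and Ccnd2 and of Rb1 and Rbl2 changed with the length used. Ccne1 was above Ccne2 on both, but the lengths included the overlaps, where reads appear to have been dropped. Overlaps held 63.0% of the exon bases and 41.9% of the body of Ccne2, and 0% of both for Ccne1. The order of Ccne1 and Ccne2 is therefore not settled by these values.

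Without DOX, the 5 libraries of both constructs were close to each other for most of these genes. The highest untreated library was 1.09 times the lowest for Cdk2, 1.28 times for Ccne1 and in between for Ccnd3, Ccne2, Cdk4, Cdk6, Rb1 and Rbl2. Ccnd2 spanned 22.0 to 103 CPM, a 4.69-fold range, and 3.62-fold within the MLL-AF9-i139 clones alone, and Ccnd1 spanned a 1.95-fold range at its low counts. Clone 2 of MLL-AF9-i139 had the lowest Ccnd2 level of the 5 untreated libraries and also of the 5 treated ones. In the single MLL-AF9-ieGFP clone, the 72 hour libraries stood above the 48 hour ones 1.28-fold without and 1.33-fold with DOX for Ccne1, and 1.17- and 1.40-fold for Ccnd2. For Rb1 the same ratios were 0.883 and 0.852, and for Ccnd3 1.13 and 1.14. With 1 clone there was no test of time.

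MLL-AF9-ieGFP cells served to measure what DOX did without miR-139. None of the 10 genes was called there with edgeR, with no unadjusted p below 0.05, and DESeq2 called none either. Over all genes edgeR called 0 of 20269 (0%), with 259 at an unadjusted p below 0.05, and DESeq2 called 1. Ccnd3 stood at 109 and 122 CPM without and 111 and 127 CPM with DOX at 48 and 72 hours, and its log2 change was 0.04 (95% confidence interval −0.43 to 0.51, edgeR adjusted p = 1). Cdk6 stood at 1443 and 1576 CPM without and 1532 and 1535 CPM with DOX (log2 change 0.02, 95% confidence interval −0.32 to 0.36). The treated and untreated libraries overlapped for both genes. Cdk4 changed by −0.05 (95% confidence interval −0.42 to 0.32) and Rb1 by 0.03 (95% confidence interval −0.35 to 0.42). The widest interval was that of Ccnd2, −1.41 to 2.12 about a log2 change of 0.35. The spread behind these intervals was shared with the MLL-AF9-i139 libraries, in which Ccnd2 varied widely between clones. Ccnd2 was higher with DOX at both time points, at 88.0 and 103 CPM without and 102 and 143 CPM with DOX.

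Whether the response to DOX differed between the constructs was tested as an interaction in 1 fit of the 10 libraries. None of the 10 genes passed with edgeR, 3 had an unadjusted p below 0.05 (9.17% of all genes did), and DESeq2 called none and also had 3 below 0.05 unadjusted. Over all genes 1 of 20269 passed with edgeR, 0.00493%. The difference in log2 change between MLL-AF9-i139 and MLL-AF9-ieGFP was 0.69 for Ccnd3 (95% confidence interval 0.08 to 1.30, edgeR adjusted p = 0.53), −0.51 for Cdk6 (−0.95 to −0.07, edgeR adjusted p = 0.527) and −0.43 for Cdk4 (−0.90 to 0.05, edgeR adjusted p = 0.576). For Rb1 it was 0.49 (edgeR adjusted p = 0.544). Without clone 3, 5 of the 10 passed, against a background of 10.2%. These were Ccnd3 (0.93, edgeR adjusted p = 0.00336), Rb1 (0.67, edgeR adjusted p = 0.0204), Cdk4 (−0.54, edgeR adjusted p = 0.0276), Cdk6 (−0.62, edgeR adjusted p = 0.0298) and Ccne1 (−0.84, edgeR adjusted p = 0.0425). With all 3 clones, a difference between the constructs was therefore not shown for any of the 10.

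The other genes of the pathway were described by lists. Every list had 0 genes called by edgeR without a block, so the counts here are those with the clone as a block, beside those without clone 3. Over all genes tested, 7.05% rose and 5.33% fell with the block. In the fit with no block and without clone 3, 11.6% were higher and 10.1% lower. Of 7 CDK inhibitors, 3 rose and none fell with the block, and 3 were higher and 2 lower in the fit with no block and without clone 3. Those that rose were Cdkn1a, which encodes p21 (46.3 ± 5.30 to 144 ± 70.7 CPM, SD, n = 3, edgeR adjusted p = 0.0271 with the block), Cdkn2d, which encodes p19Ink4d, an inhibitor of Cdk4 and Cdk6 (10.6 ± 2.23 to 28.9 ± 12.0 CPM, edgeR adjusted p = 0.0399), and Cdkn1b, which encodes p27 (12.5 ± 1.17 to 19.5 ± 3.16 CPM, edgeR adjusted p = 0.0355). The study itself singled out Cdkn1a and Cdkn2d in these libraries, so their direction is not independent evidence, and Cdkn1b was named after its values were seen. The median log2 change of the 7 was −0.11, against 0.01 over all genes tested. When clone 1 or clone 2 was left out of the blocked fit, 1 and 2 of the 7 were called higher, and in the E2F and DP and the CDK activation and turnover lists none was called. Over all genes, the fit without clone 1 called 266 higher and 58 lower of 18014. The fit without clone 2 called 456 higher and 124 lower of 18319.

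Among the 10 E2F and DP factors, Tfdp2, a dimerization partner of E2F proteins, rose with the block (51.4 ± 4.47 to 78.0 ± 4.59 CPM, SD, n = 3, edgeR adjusted p = 0.022), and E2f4, which pairs with Rbl2 in repressor complexes, fell (67.7 ± 2.11 to 50.4 ± 4.99 CPM, edgeR adjusted p = 0.033), as did E2f6 (edgeR adjusted p = 0.0361). In the fit without clone 3 and with no block, 1 was higher and 6 were lower. Of 18 measured E2F target genes of S phase entry, 13 fell and none rose with the block, 17 were lower without clone 3, and all 18 were lower in each of the 3 clones. The shares of all genes tested were 5.33% lower with the block, 10.1% without clone 3 and 26.7% in each of the 3 clones. The median log2 change of the 18 was −0.39 without the block and −0.06 in MLL-AF9-ieGFP. Among the 13 were Cdc6, which loads the replicative helicase (87.4 ± 1.05 to 60.4 ± 10.2 CPM, edgeR adjusted p = 0.0294), and Uhrf1, which maintains DNA methylation at replication (407 ± 25.1 to 272 ± 60.1 CPM, edgeR adjusted p = 0.0296). When clone 1 was left out of the blocked fit none of the 18 was called, and when clone 2 was left out 1 was. Over all genes, these fits called 58 of 18014 and 124 of 18319 lower.

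Of 12 measured genes of CDK activation and cyclin turnover, 2 fell with the block, Cdc25a, the phosphatase that activates Cdk2 (175 ± 2.79 to 118 ± 23.8 CPM, SD, n = 3, edgeR adjusted p = 0.0305), and Skp2, which targets p27 for degradation (56.0 ± 4.46 to 40.9 ± 3.82 CPM, edgeR adjusted p = 0.0413). None rose, and 3 were lower without clone 3. Ambra1, a ubiquitin ligase adaptor for D-type cyclins, and Cul3, a ubiquitin ligase scaffold, had log2 changes of 0.13 and 0.08 and were not called. Wee1, Fbxw7 and Fbxo31 of this list, and Cdt1 and Tk1 of the E2F targets, are listed at 0 counts with their gene bodies wholly inside other annotated genes and were not measured. Of 8 other pocket protein, DREAM and MuvB subunits none was called with the block, 2 were lower without clone 3, and 7 were lower in all 3 clones. Of 11 other cell cycle cyclins and kinases none was called with the block, and 2 were higher and 3 lower without clone 3.

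**Figure D5:**
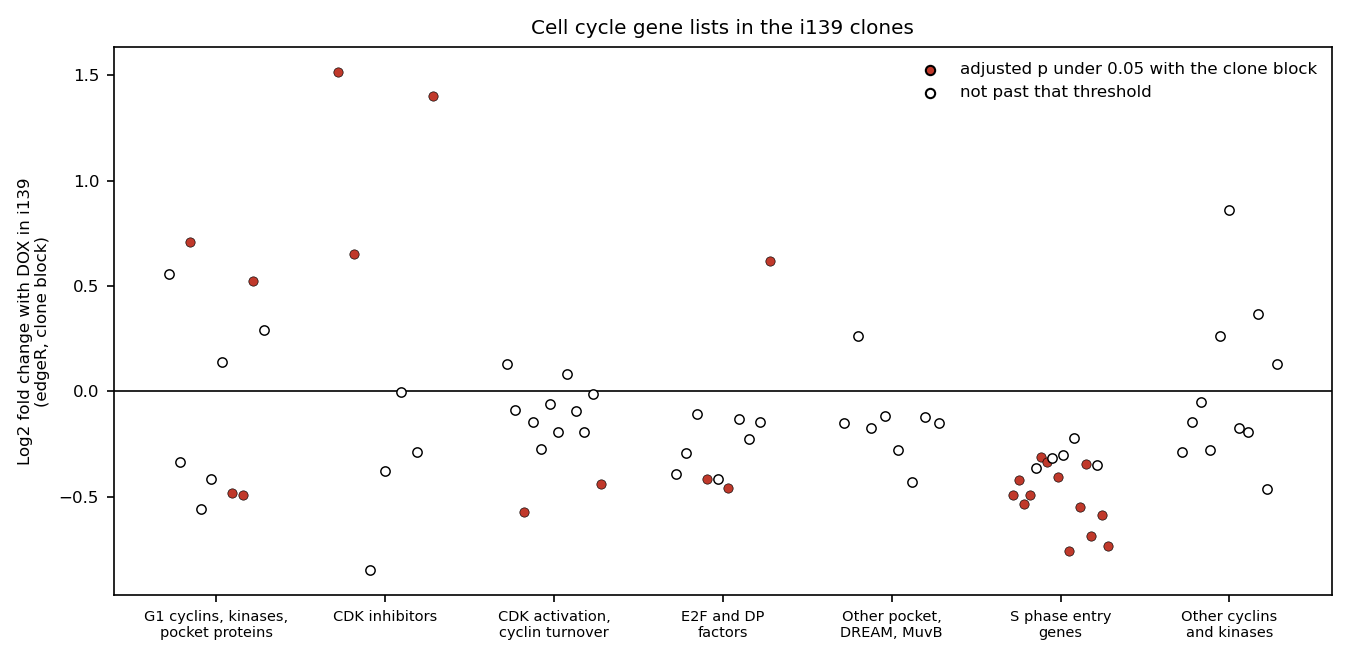
Log2 change with DOX in MLL-AF9-i139, fitted with the clone as a block, for each measured gene of the 10 genes and of the 6 other lists, 1 point per gene, filled where the edgeR adjusted p was below 0.05. All points of the E2F target genes lie below 0, with 13 of 18 filled, and the 3 filled CDK inhibitors lie above 0.

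Markers of the cell types that the cultures could hold moved as well. The summed level of 7 myeloid progenitor markers was 1199 to 1478 CPM in untreated and 2242 to 2543 CPM in treated MLL-AF9-i139 libraries, and 1294 to 1428 and 1487 to 1767 CPM in MLL-AF9-ieGFP. Of the 6 measured, Mpo, Fcgr3 and Cd34 rose with the block, where 7.05% of all genes did. Mpo went from 537 ± 107 to 1406 ± 229 CPM (SD, n = 3, edgeR adjusted p = 0.00955 with the block). The rest were not called. Mean Ptprc was 199 CPM without and 278 CPM with DOX in MLL-AF9-i139, Kit was level (143 and 144 CPM) and Ly6c2 was lower (396 and 320 CPM). Cd34 had 37 counts in all 10 libraries together, and its untreated mean was below the level of 3 counts per library. Itgam had 6 counts in all with 99.9% of its body inside other genes. The sum of 8 mature neutrophil markers was 129 to 222 CPM without and 191 to 359 CPM with DOX in MLL-AF9-i139, and 295 to 375 and 282 to 397 CPM in MLL-AF9-ieGFP, with Ngp and Cxcr2 of 7 measured rising with the block. Mean Ngp alone went from 59.3 to 149 CPM. Ltf, Camp, S100a8, S100a9 and Mmp8 were not called, with log2 changes of 0.46, 0.45, 0.27, 0.01 and −0.82 without the block. The sum of 5 macrophage or monocyte markers was 8.03 to 11.1 and 9.54 to 27.3 CPM in MLL-AF9-i139 and 7.54 to 8.76 and 7.94 to 9.13 CPM in MLL-AF9-ieGFP, with Csf1r of 4 measured rising and C1qa at 0. Treated clone 3 was the lowest treated MLL-AF9-i139 library in the neutrophil and the macrophage or monocyte sums and the highest in the progenitor sum. Untreated clone 3 was likewise the lowest untreated MLL-AF9-i139 library in the neutrophil (129 CPM) and the macrophage or monocyte sums (8.03 CPM). Clone 3 also had the smallest change by size in 9 of the 10 genes, with Ccnd2 among them moving the opposite way there. Markers of T cells, B cells, erythroid cells and megakaryocytes summed to at most 2.97 CPM in any library. In bulk libraries a change in the share of cells of a type and a change in RNA per cell cannot be told apart, and the part of these markers in the results of the 10 genes was not tested.

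Genes among the most like Ccnd3, Rb1 and Cdk6, the 3 of the 10 with the smallest unadjusted p, were found by Pearson's r of log2 CPM over the 10 libraries among 11875 genes. For Ccnd3 they were Baz2a (r = 0.990) and Pef1 (0.990), for Rb1 Zc2hc1a (0.992), Cpeb4 (0.988) and Acap2 (0.988), and for Cdk6 Ssbp1 (0.984), Ncapg2 (0.981) and Ola1 (0.979). The 10 libraries share clones and treatment, so these values describe a shared pattern over the same groups. Among the 10 genes themselves, Rb1 and Cdk4 had r = −0.982 and Ccne2 and Cdk6 r = 0.960.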

How the data were processed

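The genes and gene lists were chosen with earlier results of these data known. Raw counts per gene were deposited by the authors for 10 libraries, from TRIzol RNA and rRNA-depleted KAPA libraries. The submitters' processing notes name STAR 2.5.3e, featureCounts 1.6.0, DESeq2 1.22.2, FastQC 0.11.8 and GRCm38, and the study's methods name GENCODE M15. The settings of the counting are not given in the sources used here. A pair of deposited tables held the same counts (0 differing values), and 14 columns of other samples were not used. Symbols (52403 of 52550 identifiers matched), coordinates, lengths and 3′ UTRs came from GENCODE vM21 on GRCm38.

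Genes with at least 10 counts in total were tested with edgeR 4.0.16 (R 4.3.3, quasi-likelihood, TMM, Benjamini-Hochberg, adjusted p of 0.05, prior count of 2). MLL-AF9-i139 was fitted on its 6 libraries without a block, and MLL-AF9-ieGFP and the interaction in 1 fit of 4 groups over 10 libraries. The MLL-AF9-ieGFP libraries are cultures of 1 clone and hold no spread between clones. Their p-values and intervals come from the fit of 10 libraries, so they rest on a spread shared with the MLL-AF9-i139 clones. No library repeated another within sampling noise. The same clones were sequenced with and without DOX per the labels, and deviations from the group means correlated at 0.381, 0.288 and 0.414 within clones and −0.315 to −0.0437 between them, so the clones pair the libraries. Alternatives were DESeq2 1.42.0, RLE scaling, other filters, the clone block and leaving out each clone or time point, treated and untreated libraries together. Scripts were tested on simulated data. Besides the 10 genes, the rule for the genes named took at most 2 per list and direction with the smallest p, and the 3 most alike in pattern to each of the 3 genes of the 10 with the smallest p. Of these, 1 gene is not reported here. Cdkn1b, Fcgr3, Kit, Ptprc, Ltf, Camp, S100a8 and S100a9 fall outside the rule and were named after their values were seen. B cell, T cell, erythroid and megakaryocyte markers are given as sums.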

Additional observations from a re-analysis of the deposited data

Results flagged for a closer look

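Ccnd2 was lower with DOX in both MLL-AF9-i139 clones treated for 48 hours (log2 changes −0.73 and −0.89) and higher in the clone treated for 72 hours (0.55). The mean difference between them was 1.36 on the log2 scale. It was not tested, because 1 clone stands for the longer treatment, and clone and time cannot be told apart.

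Ccne1 was lower with DOX in all 3 MLL-AF9-i139 clones (−0.69, −0.96 and −0.07) and higher at both MLL-AF9-ieGFP time points (0.02 and 0.08), a difference between the constructs of −0.58 with an edgeR adjusted p of 0.61. Ccne2 had the same signs (−0.56, −0.71 and −0.02 against 0.05 and 0.05) and a difference of −0.45 with an edgeR adjusted p of 0.618. Neither passed the test, and in clone 3 both changes were as small as those in MLL-AF9-ieGFP. The groups of 2 and 3 libraries are too small for a test of single outlying libraries.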

How the results depend on the processing

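In MLL-AF9-i139 edgeR called 12 genes and 0 of the 10 G1 genes. DESeq2 called 1556 and 3, the replicate block 2381 and 4, DESeq2 with the block 3012 and 5, the fit of all 10 libraries 1234 and 2, a filter of at least 1 count 562 and 1, and a filter of at least 10 counts in 3 libraries 6 and 0. Leaving out 1 clone at a time gave 0 to 3981 genes and 0 to 7 of the 10, and with the block 324 to 7974 and 0 to 9, in each case the highest without clone 3. Which of the 10 were called therefore depended on the block and on clone 3, and a call lost without clone 1 or 2 also rests on fewer libraries. Ccnd2 turned from 0.07 to −0.33 with the block and to −0.35 with DESeq2 and the block, and ranged from −0.78 to 0.34 with a clone left out. The other 9 kept their sign in all settings. In MLL-AF9-ieGFP edgeR called 0 genes and DESeq2 1, and without a time point the log2 changes ranged from −0.0591 to 0.0943 for Cdk6, −0.0137 to 0.0669 for Rb1 and −0.0345 to 0.1164 for Rbl2. For the interaction edgeR called 1 gene and 0 of the 10, DESeq2 83 genes, the block 38 and a filter of at least 10 counts in 2 libraries 0. Leaving out a clone or a time point gave 0 to 2011 genes and 0 to 5 of the 10. With the block, leaving out an MLL-AF9-i139 clone gave 4 to 5616 and 0 to 8, again the highest without clone 3. The fits with both a block and a clone left out, and DESeq2 with a block, were chosen after seeing the data. Over the 10 genes and all settings, 94 values in MLL-AF9-i139 kept direction and side of the threshold, 30 kept direction and passed it newly, and 6 changed sign, all of them Ccnd2, which passed it in 1 of these (the block without clone 3). The fewest reads lay behind Ccnd1, with 32 to 96 counts per library.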
